A study of Mus musculus with 2 samples.

Results

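Nonsense-mediated decay is a surveillance pathway that degrades messenger RNAs on which translation stops too early. In mammals a stop codon is read as premature chiefly when an exon junction, marked by a protein complex left behind by splicing, lies well downstream of it. The annotators give the type "nonsense_mediated_decay" to transcripts whose reading frame ends in that way, and many splicing factors are known to use such transcripts to limit their own level. The members described here are the annotated transcripts of that type with 3 or more reads summed over 2 long-read libraries of the mouse adrenal gland. They were selected on their type in the deposited annotation and on their reads. This gave 223 transcripts of 205 genes, out of 21297 annotated transcripts with reads in 13012 mouse genes. The type as a whole had 627 transcripts with reads, in 555 genes.

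Both libraries were made from total RNA of adrenal glands of female B6CASTF1/J mice aged 25 days, the first generation of a cross between the strains C57BL/6J and CAST/EiJ, with added Ambion and Lexogen control RNAs. The labels give 1 group, biological replicates 1 and 2, and no treatment or second genotype, so no condition could be compared. The library descriptions name the same animal for both, whereas the tissue descriptions name a different animal for each. Replicate 1 held 426150 reads and replicate 2 held 770041, of which 306140 and 548362 fell on annotated mouse transcripts. The tissue label was checked on adrenal genes: Cyp11a1, which starts steroid synthesis, had 4490 and 7175 such reads in replicates 1 and 2, and Th, which starts catecholamine synthesis in the adrenal medulla, had 716 and 1070.

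The sequences that set these transcripts apart lie at the end of their reading frames. Each member is given by the last bases of its frame, 5′ to 3′ on the messenger, with its stop codon in capitals. The line after it is the same stretch of the most read protein-coding transcript of the gene, in lower case, starting from the same base. All are taken from the GENCODE M21 transcript sequences of the C57BL/6J genome, build mm10, so they carry no CAST/EiJ allele. The first pairs are from RNA-binding proteins: Srsf3, an SR protein that promotes splicing, and Ddx5, an RNA helicase of the spliceosome. In Srsf3-201 an added exon of 456 bases carries the stop, at chr17:29039485-29039487 on the plus strand. In Ddx5-208 an unspliced intron of 1265 bases follows the shared exon, and the stop, at chr11:106783954-106783956 on the minus strand, ends with the fifth base of that intron.
Srsf3-201: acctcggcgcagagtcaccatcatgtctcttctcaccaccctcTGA
Srsf3-202: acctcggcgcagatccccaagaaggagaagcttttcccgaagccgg
Ddx5-208: accgatgtggcctccagagggctaggtTAG
Ddx5-201: accgatgtggcctccagagggctagatgtg

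Small shifts of a splice site had the same outcome. Cyth2-203, from the gene of a guanine nucleotide exchange factor for ARF GTPases, uses a donor site that adds 4 bases, and its frame runs on for 71 bases to a stop at chr7:45808383-45808385 on the minus strand. Psma3-201, from the gene of an alpha subunit of the proteasome core, uses an acceptor site that removes 5 bases, and ends at chr12:70983340-70983342 on the plus strand. The bases after the shift are the same in member and coding transcript, read in another frame.
Cyth2-203: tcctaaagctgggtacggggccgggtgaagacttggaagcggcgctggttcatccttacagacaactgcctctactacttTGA
Cyth2-202: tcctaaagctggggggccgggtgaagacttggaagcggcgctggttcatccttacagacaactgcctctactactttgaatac
Psma3-201: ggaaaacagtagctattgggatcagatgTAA
Psma3-202: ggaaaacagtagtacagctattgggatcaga

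Added and skipped exons gave the next examples. Yaf2-202, from the gene of a Polycomb-associated protein, holds an added exon of 70 bases and ends at chr15:93317554-93317556 on the minus strand. Tk2-202 lacks an exon of 74 bases of the mitochondrial thymidine kinase gene and ends at chr8:104231228-104231230 on the minus strand. Mrap encodes the accessory protein that carries the corticotropin receptor to the cell surface, and its member Mrap-202 holds an added exon of 85 bases with the stop in its first 5 bases, at chr16:90746644-90746646 on the plus strand.
Yaf2-202: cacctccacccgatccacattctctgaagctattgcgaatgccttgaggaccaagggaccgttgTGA
Yaf2-201: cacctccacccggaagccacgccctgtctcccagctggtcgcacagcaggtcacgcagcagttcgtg
Tk2-202: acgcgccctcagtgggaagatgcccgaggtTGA
Tk2-201: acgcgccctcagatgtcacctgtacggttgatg
Mrap-202: gagaagaagctgaaagccaacaagctgTGA
Mrap-201: gagaagaagctgaaagccaacaagcattcc

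Retained introns of other genes could be read through for longer. In Psmc5-202, from the gene of an ATPase of the proteasome's regulatory particle, the frame runs through the whole retained intron of 78 bases, and the last 3 of them are the stop, at chr11:106262578-106262580 on the plus strand.
Psmc5-202: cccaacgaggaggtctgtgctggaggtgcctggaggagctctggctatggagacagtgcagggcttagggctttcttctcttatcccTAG
Psmc5-201: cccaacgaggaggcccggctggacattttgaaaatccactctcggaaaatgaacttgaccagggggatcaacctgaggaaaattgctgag

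The members held a small part of the reads. They took 825 of the annotated reads in replicate 1, or 0.269% (95% Wilson interval 0.252 to 0.288), and 1561 in replicate 2, or 0.285% (0.271 to 0.299). This was 0.277% ± 0.0107 (SD, n = 2), and the intervals of the libraries overlapped. Intervals and detection limits here cover counting error only, since reads without molecular identifiers are not independent molecules. All transcripts of the type took 0.340% ± 0.0129, against 94.9% ± 0.111 for protein-coding transcripts and 1.17% ± 0.0230 for transcripts annotated as retained introns (SD, n = 2). Ddx5-208 alone held 18.9% of the members' reads, and without it the members' mean share of annotated reads was 0.224%. The 15 most read members together held 1022 of the 2386 reads, whereas 115 of the 223 had 3 to 5 reads.

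Most members were read in both libraries. Reads were found in both for 194 of 223 members, or 87.0%, against 94.1% of 11602 protein-coding and 85.1% of 673 retained-intron transcripts with 3 or more reads. Another 3 members were read in replicate 1 alone and 26 in the deeper replicate 2 alone. With no read observed, up to 3 remain possible; relative to the annotated reads this limit is 9.80 CPM in replicate 1 and 5.47 CPM in replicate 2, so an absence from 1 library is not shown. Members had a median of 5 reads, 1632 bases and 7 exons, protein-coding transcripts one of 18 reads, 2509 bases and 8 exons, and retained-intron transcripts one of 5 reads, 1296 bases and 3 exons. At the threshold, 53 members had exactly 3 reads, with a median share of 7.69% of their gene's annotated reads, and 135 transcripts of the same type had 2 reads and fell outside, with 5.71%.

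Annotation of the type was far wider than what was read. In the 5625 genes with at least 20 annotated reads over both libraries, 2634 such transcripts are annotated, in 1623 genes. Of these 434, or 16.5%, had any read, and 181, or 6.87%, had 3 or more. The corresponding share with 3 or more reads was 45.3% of 16530 protein-coding transcripts and 6.57% of 8595 retained-intron transcripts. The share rose with the depth of the gene: 0.880% of the annotated transcripts of the type were members in genes with 1 to 9 reads, 3.52% at 10 to 29, 6.30% at 30 to 99, 8.89% at 100 to 299 and 14.5% at 300 or more. The number of members is thus a count at this depth.

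**Figure D1:**
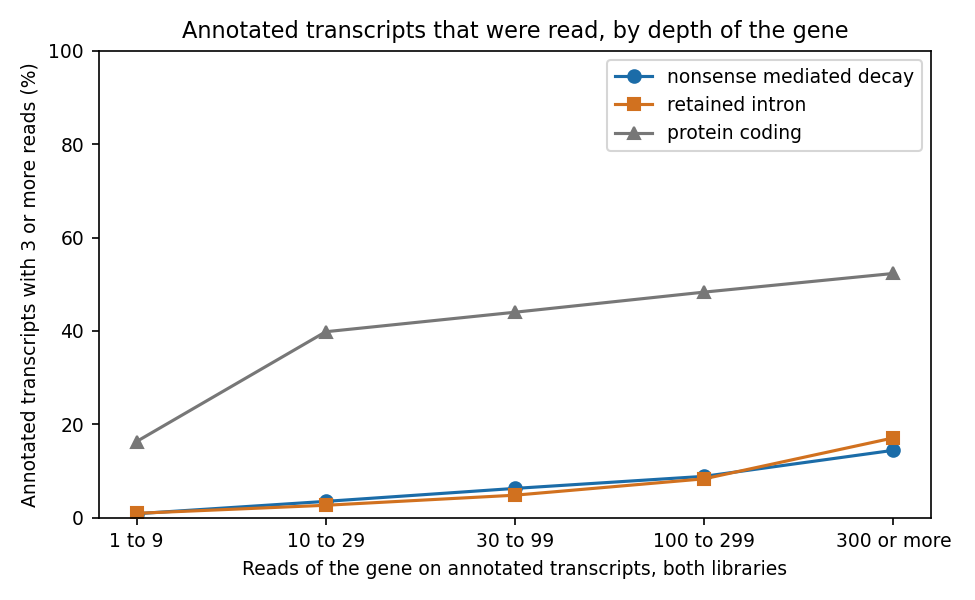
Percentage of annotated transcripts with 3 or more reads (y axis) by the gene's reads on annotated transcripts over both libraries (x axis), for nonsense-mediated decay, retained-intron and protein-coding types. The nonsense-mediated decay line climbs to 14.5% in genes with 300 or more reads, close to the retained-intron line at 17.1% and below the protein-coding line at 52.3%.

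Within their genes the members were mostly minor transcripts. In the 181 members of genes with at least 20 annotated reads, the median share of the gene's annotated reads was 8.55% (quartiles 4.22% and 16%), and 101 members stood under 10%. The median of the protein-coding transcripts was 92.9%, and that of the retained-intron transcripts 5.38%. The minimum of 3 reads sets a floor on these shares that falls with depth: the median was 14.7% in genes with 20 to 49 reads, 7.03% with 50 to 199 and 1.83% with 200 or more. Of the 181, 7 were the most read annotated transcript of their gene, and 5 held more than 50% of its reads.

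Ddx5-208 was the most read member. It had 171 of the 306 annotated Ddx5 reads in replicate 1 and 281 of 586 in replicate 2, shares of 55.9% (95% Wilson interval 50.3 to 61.3) and 48.0% (43.9 to 52.0), or 51.9% ± 5.61 (SD, n = 2). The coding transcript Ddx5-201 had 135 and 305 reads, so that the member was above it in replicate 1 and below it in replicate 2. When reads on unannotated models of Ddx5 are also counted in the denominator, the member held 40.4%. The stop of Ddx5-208 lies 1485 bases before its last exon junction and its reading frame has 66.1% of the length of the coding one.

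Cyth2-203 led its gene in both libraries. It had 27 of 45 annotated reads in replicate 1 and 59 of 88 in replicate 2, or 60% and 67.0%, 63.5% ± 4.98 (SD, n = 2), against 14 and 27 reads of the coding transcript Cyth2-202. It stayed above 50% with unannotated models counted, at 55.1%, the only one of the 5 to do so. Its support level in the annotation is 5, the weakest grade of transcript evidence.

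The other members above 50% rested on fewer reads. Tor1aip1-206, from the gene of an inner nuclear membrane protein, had 8 of 14 and 8 of 13 reads, 57.1% and 61.5% in replicates 1 and 2. E2f6-204, from the gene of a repressor of the E2F family, had 9 of 14 and 8 of 18 reads, 64.3% and 44.4%. Ppcdc-213, from the gene of a decarboxylase of coenzyme A synthesis, had 4 of 11 and 14 of 21 reads, 36.4% and 66.7%. The intervals of the libraries overlapped for each, which are wide at these depths. Hnrnpdl-201 and Meaf6-208 were the most read annotated transcripts of their genes without passing 50%. Hnrnpdl-201 had 4 of 12 and 15 of 36 reads, and Meaf6-208, from a subunit gene of histone acetyltransferase complexes, 5 of 13 and 10 of 17.

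**Figure D2:**
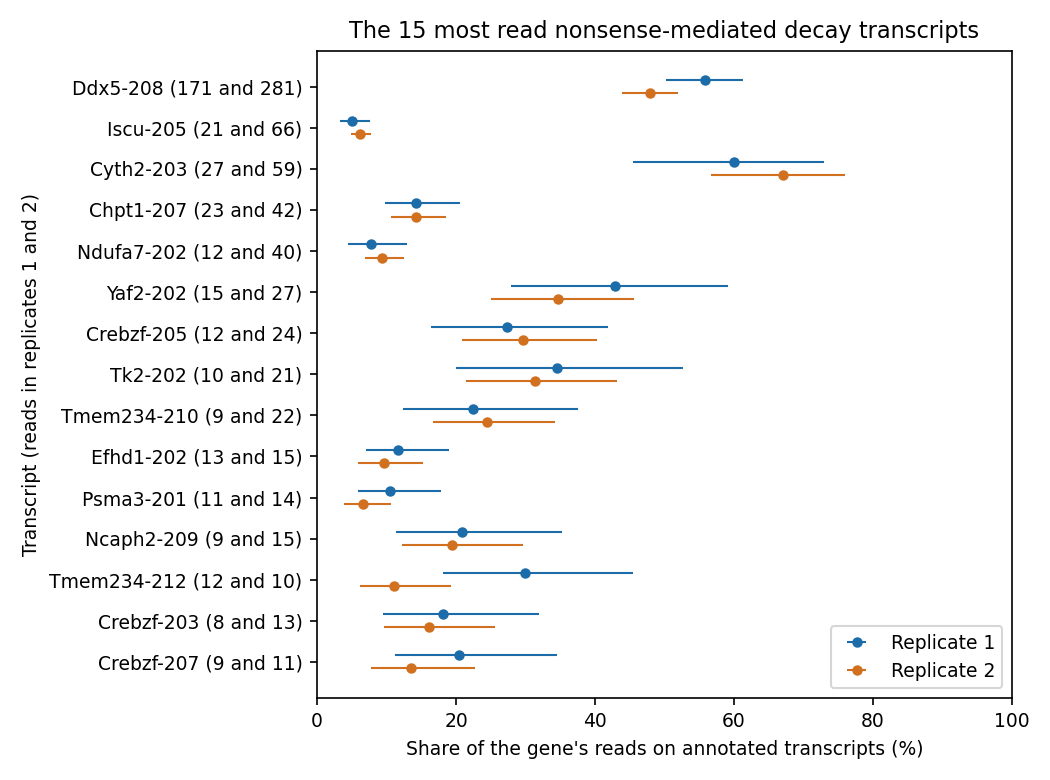
Share of the gene's reads on annotated transcripts (x axis, percent) for the 15 members with most reads, with the reads in replicates 1 and 2 beside each name. Points are libraries and bars 95% Wilson intervals. Ddx5-208 and Cyth2-203 lie near and above 50%, and the others lie below 45% in both libraries.

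Iscu-205, Chpt1-207 and Ndufa7-202 were also among the 5 most read members. Iscu-205, from the gene of the scaffold for iron-sulfur cluster assembly, had 21 and 66 reads but was 5.06% and 6.15% of a gene with 415 and 1074 annotated reads. That transcript is annotated as incomplete at an end, and its frame of 178 bases does not join that of the coding transcript. Chpt1-207, from the gene of a choline phosphotransferase of phosphatidylcholine synthesis, had 23 and 42 reads and shares of 14.3% and 14.2%. Ndufa7-202, from a subunit gene of respiratory complex I, had 12 and 40 reads and shares of 7.69% and 9.32%. The Wilson intervals of the libraries overlapped for each of these 3. Among the 15 most read, the gap between libraries was widest for Tmem234-212, with 30% and 11.1%, followed by Yaf2-202, with 42.9% and 34.6%.

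Yaf2-202 and Tk2-202 took a larger part of their genes. Yaf2-202 had 15 of 35 reads in replicate 1 and 27 of 78 in replicate 2, 42.9% and 34.6%. Tk2-202 had 10 of 29 and 21 of 67 reads, 34.5% and 31.3%. With unannotated models counted in the denominator, Yaf2-202 held 33.3% and Tk2-202 18.8% on summed reads. Ncaph2-209, from the gene of a condensin subunit, had 9 of 43 and 15 of 77 reads, 20.9% and 19.5%, or 15.2% counted that way. Its frame is left early: it has 6.41% of the length of the coding frame, and 18 exon junctions follow its stop.

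A few genes had several members. Of the 205 genes, 191 had 1 member, 12 had 2 and 2 had more. Crebzf, the gene of a basic leucine zipper transcription regulator, had 3 members, Crebzf-205, Crebzf-203 and Crebzf-207. Together they held 29 of 44 annotated reads in replicate 1 and 48 of 81 in replicate 2, or 65.9% and 59.3%. Tmem234, the gene of a transmembrane protein, had 5 members that together held 26 of 40 and 48 of 90 reads, or 65.0% and 53.3%. With unannotated models counted, Tmem234 had 61 and 128 reads in replicates 1 and 2, of which these members held a minority. Crebzf had 46 and 83 reads on that basis, of which its members still held the majority. In both genes the annotated protein-coding transcript with most reads was therefore a minority of the annotated reads, 14 and 27 reads for Crebzf-201 and 11 and 34 for Tmem234-201. Members of 1 gene share exons and some junctions, and each read counts for 1 model, so these counts rest on the authors' assignment of reads.

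The kind of change was read by comparing each member's introns with those of the most read protein-coding transcript of its gene, which 214 members had. Alternative splice sites were the most frequent single kind, in 96 members, followed by an added exon in 38, a skipped exon in 31, a retained intron in 14 and an extra intron within an exon in 10. Another 18 members combined several kinds, 7 differed only in the first or last part of the transcript, where 3 of them hold introns found in no annotated protein-coding transcript, and 9 belonged to genes with no protein-coding transcript read. By reads the order was different, since the 14 members with a retained intron held 530 reads, 452 of them on Ddx5-208, and the 96 with a changed splice site 820. In genes with at least 20 annotated reads, the median share was 8.57% for changed splice sites (77 members) and 11.5% for added exons (35). It was 6.24% for skipped exons (26), 6.38% for retained introns (14) and 16.8% for extra introns (9, of which 3 are from Crebzf).

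**Figure D3:**
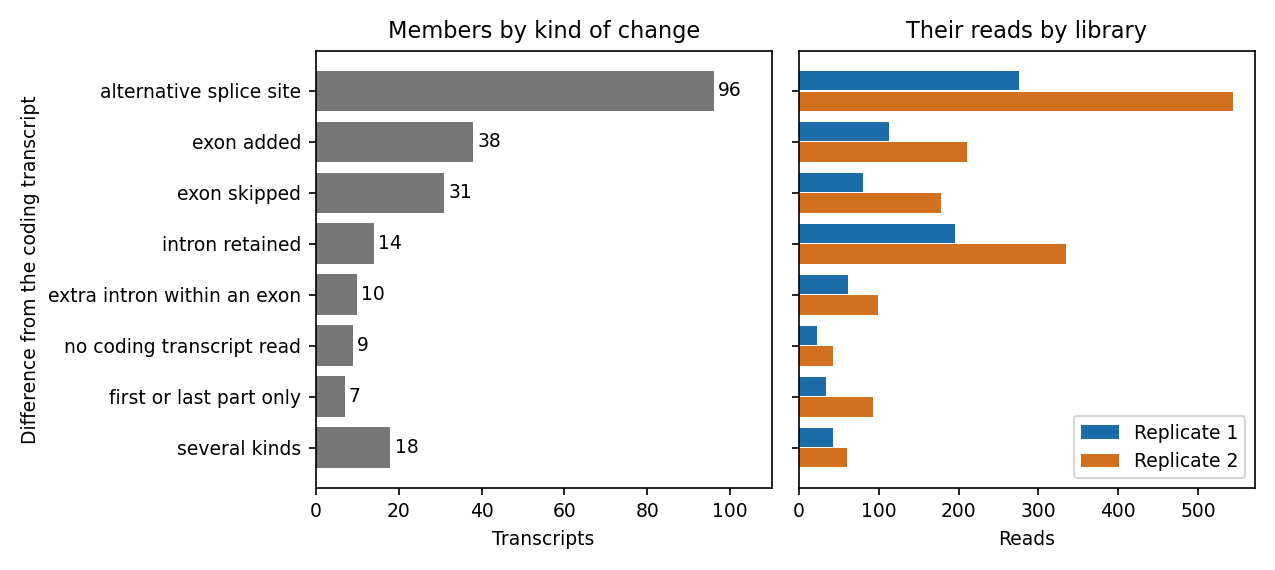
Number of members (left) and their reads in replicates 1 and 2 (right) by how the member differs from the most read protein-coding transcript of its gene. Changed splice sites lead with 96 members, and retained introns rank second by reads because Ddx5-208 is among them.

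Exon lengths followed the reading frame. A skipped exon whose length is divisible by 3 keeps the frame, and none of the 31 members that differ by 1 skipped exon had such a length: these exons had 41 to 373 bases, with a median of 85. An added exon can carry a stop whatever its length, and 12 of 38 had a length divisible by 3, with 35 to 456 bases and a median of 103. Of 90 members with 1 changed site, 49 changed a donor and 41 an acceptor, by 2 to 962 bases and a median of 51, and 9 changes were divisible by 3. The type is assigned from the reading frame, so these lengths describe the annotation and are not a finding about the tissue.

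The most read members with a skipped exon were Ndufa7-202, Tk2-202 and Prdx6-208. Ndufa7-202 lacks an exon of 50 bases and Ndufs4-202, from another complex I gene, lacks 1 of 79. Prdx6-208 lacks an exon of 157 bases of a peroxiredoxin gene, with 6 and 12 reads in a gene with 351 and 635 annotated reads, shares of 1.71% and 1.89% in replicates 1 and 2. Its frame runs for 136 bases in the other phase before it stops. Ndufs4-202 had 4 and 9 reads and shares of 7.14% and 6.92%.

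Among added exons, Dnajc5-204 showed the widest spread of those named. Dnajc5 encodes the cysteine string protein, a cochaperone of secretory vesicles, and the member had 2 of 11 reads in replicate 1 and 15 of 27 in replicate 2, 18.2% (5.14 to 47.7) and 55.6% (37.3 to 72.4). The intervals overlap. Mcrip2-206 holds an added exon of 133 bases, with 5 and 15 reads and shares of 4.31% and 7.35%. E2f6-204 and Tor1aip1-206, described above, have added exons of 66 and 56 bases.

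Retained introns outside Ddx5 had few reads. Ppp1cc-203, from the gene of a catalytic subunit of a protein phosphatase, retains an intron of 190 bases and had 3 of 50 and 9 of 113 reads, 6% and 7.96%. Psmc5-202 had 4 of 96 and 8 of 181 reads, 4.17% and 4.42%. The intervals of both lie below those of Ddx5-208.

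Changed splice sites ranged widely in size. Tmem234-210 has a donor shifted by 109 bases and had 9 of 40 and 22 of 90 reads, 22.5% and 24.4%. Echdc2-209, from an enoyl-CoA hydratase family gene, has a donor shifted by 278 bases, with 4 of 17 and 9 of 29 reads. Ppcdc-213 has an acceptor that lengthens the exon by 218 bases, and Chpt1-207 a donor that lengthens it by 93.

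Some members kept the stop of the coding transcript. This was so for 14 of 214, of which 7 have an extra intron within an exon and 5 differ only in their first or last part. In these the reading frame ends where the coding one does, and at least 1 exon junction follows it. Crebzf-205 had 12 of 44 and 24 of 81 reads, 27.3% and 29.6%, with its last junction 286 bases after the stop. Efhd1-202, from the gene of a mitochondrial calcium-binding protein, had 13 of 111 and 15 of 156 reads, 11.7% and 9.62%, with its last junction at 51 bases, the shortest distance found. Gfer-204, from the gene of a sulfhydryl oxidase of mitochondria, had 8 of 24 and 8 of 29 reads, and its junction lies at 112 bases. Hnrnpdl-201 and Hnrnpa1-203 belong to the same group, with last junctions 126 and 90 bases after the stop. Prmt6-202, from an arginine methyltransferase gene, had 5 of 8 and 7 of 18 reads but shares its intron chain with another annotated transcript, as 5 members do, so that its reads are told apart by their ends.

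The 9 members of genes with no protein-coding transcript read had 65 reads in all. Hyi-202, from the gene of a putative hydroxypyruvate isomerase, had 2 of 14 and 17 of 40 reads, 14.3% and 42.5%. Arpc5l-201, from the gene of an actin nucleation complex subunit, had 3 of 5 and 7 of 7 annotated reads. Cbarp-212, from the gene of a regulator of voltage-gated calcium channels, had all 4 and all 5. The last 2 rest on genes with at most 12 annotated reads. With unannotated models also counted in the denominator, Arpc5l-201 held 45.5% and Cbarp-212 24.3%.

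In members with a coding transcript for comparison the frame usually closed soon after it left the coding one. The 196 members that left it had a median of 44.5 bases from there to the end of the stop codon, with a range of 1 to 433, and 125 closed within 60 bases. Of the 223 members, 18 are annotated as incomplete at an end and are included here. The members' reading frames had a median of 285 bases, and a median of 38.02% of the length of the coding frame. Their stop codons were TGA in 124, TAG in 55 and TAA in 44. In all 223 the last junction lay at least 50 bases after the stop, at a median of 290 and up to 3667 bases. This distance is part of how the type is defined. Of the 11602 protein-coding transcripts with 3 or more reads, 11200 have an annotated stop codon and more than 1 exon, and it held for 30 of these, or 0.268%, and 95.5% of them ended in the last exon. A median of 3 junctions followed the members' stops, and 57 members had 1.

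By function, members were counted in lists of genes, first those of splicing factors, with no test of a difference between lists. Of 34 SR protein and splicing activator genes with reads, 3 had a member, Srsf3, Rbm39 and Clk2, although 32 of the 34 are annotated with a transcript of the type. Of 33 hnRNP and repressor genes with reads, 5 had one, Hnrnpdl, Hnrnpa1, Tardbp, Hnrnph3 and Ptbp2. Of 39 spliceosome core genes, 4 had one, Ddx5, Snrpa1, Snrpb and Snrpe. Over all genes with reads the figure was 205 of 13012, or 1.58%. Among genes with at least 20 annotated reads it was 13.0% (3 of 23), 16.7% (4 of 24) and 11.4% (4 of 35) for these lists in the same order, against 163 of 5625, or 2.90%, of all such genes. A gene can have a member only if a transcript of the type is annotated for it. Of the 5625 genes 1623 have one, and 163 of 1623 is 10.04%. Nearly all SR genes have one, so 10.04% is the nearer comparison for the 13.0% of that list, which rests on 3 genes. In the hnRNP and spliceosome lists 15 and 13 genes have one. The lists were chosen with earlier results of these data known. They differ in depth, which moves with these shares, and in annotation of the type, and the part of either was not tested.

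**Figure D4:**
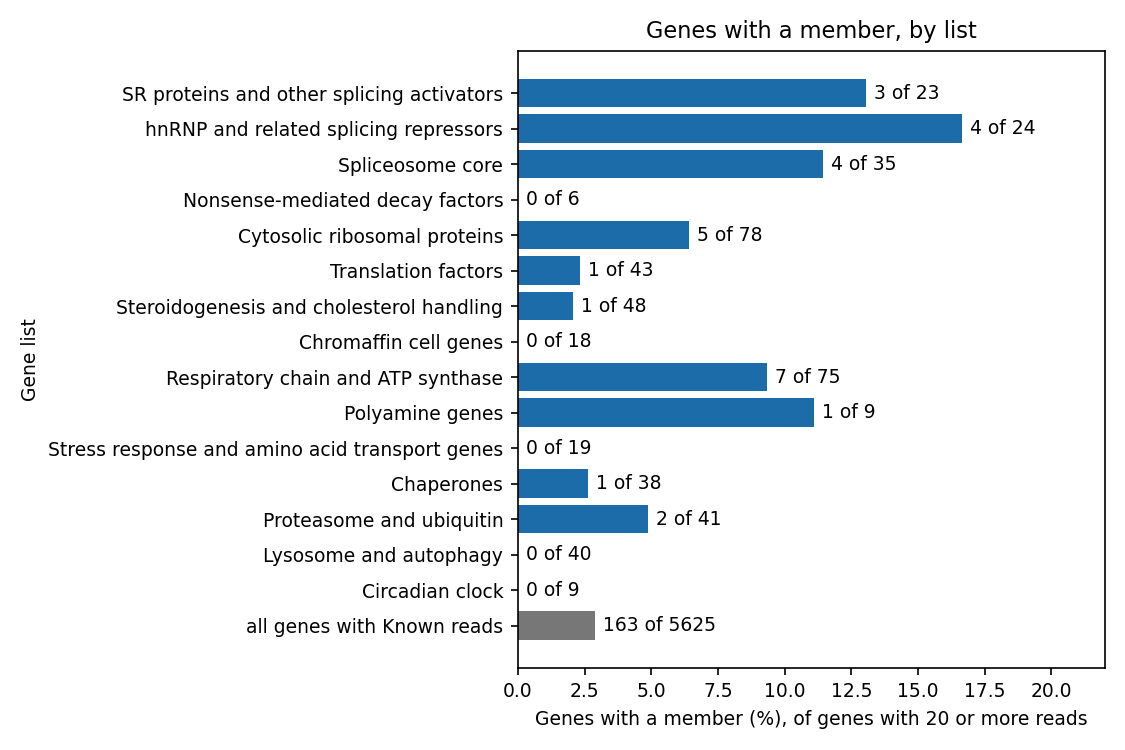
Percentage of genes with a member (x axis) among the genes of each list with 20 or more annotated reads, with the counts beside the bars; the grey bar gives all such genes. The splicing factor lists lie between 11.4% and 16.7%, all genes at 2.90%, and 5 lists at 0. Genes with no annotated transcript of the type are included, and without them the figure for all genes is 10.04%.

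The members' shares varied widely within these lists. On summed reads they ran between 1.28% for Snrpb-203 and 66.7% for Ptbp2-208, which rests on 3 of 4 annotated reads in replicate 1 and 1 of 2 in replicate 2; both are named for their values. Hnrnpdl-201, given above, held 33.3% and 41.7%. Srsf3-201 had 6 of 60 annotated reads in replicate 1 and 10 of 145 in replicate 2, 10% and 6.90%, or 8.45% ± 2.19 (SD, n = 2). Exons of this kind are known in mammalian SR protein genes as poison exons. Hnrnpa1-203 had 4 of 42 and 8 of 93 reads, 9.52% and 8.60%. The members of the spliceosome list held 466 of its 4491 annotated reads, of which Ddx5-208 accounts for 452.

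The respiratory chain, ribosomal and proteasome lists were read deeply, with medians of 415, 448 and 203 annotated reads per gene, and depth moves with the count of members; its part was not tested. Of 75 respiratory chain and ATP synthase genes, 7 had a member (9.33%), against 2.90% of all genes with at least 20 annotated reads. Of the 75, 19 are annotated with a transcript of the type, so 7 of 19 had a member. The figure for all annotated genes with at least 20 annotated reads was 163 of 1623, or 10.04%. All 7 genes with a member encode subunits of complex I, but the complex I genes in the list were not counted. The members of the 7 genes held 96 of the list's 40851 reads. Ndufs6-202 had 3 of 58 and 8 of 104 reads, 5.17% and 7.69%. Of 78 ribosomal protein genes with at least 20 annotated reads, 5 had a member (6.41%), with 33 of the list's 39698 reads. In that list 19 genes are annotated with a transcript of the type. Rpl10a-203, which has a donor shifted by 233 bases, had 6 of 232 and 7 of 394 reads, 2.59% and 1.78%. Of 41 proteasome and ubiquitin genes with at least 20 annotated reads, 2 had members (4.88%), Psma3 and Psmc5. Psma3-201 had 11 of 105 and 14 of 214 reads, 10.5% and 6.54%.

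Among genes with any read, the counts in the adrenal lists lay near those of all genes. Of 53 genes of steroidogenesis and cholesterol handling, all with reads, Mrap had members (1.89%), and of 32 chromaffin cell genes with reads Stx1a had one (3.13%), against 1.58% of all genes with reads. Among genes with at least 20 annotated reads it was 1 of 48 (2.08%) and 0 of 18, against 2.90% of all such genes. Stx1a had 10 annotated reads. Mrap-204 had 8 of 273 reads in replicate 1 and 5 of 299 in replicate 2, 2.93% and 1.67%. Mrap-202 had 6 and 6 reads, 2.20% and 2.01%. Together the members held 25 of the 65976 annotated reads of the steroidogenesis list, or 0.0379%. Just 8 of the 53 genes are annotated with a transcript of the type.

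The translation factor, polyamine and chaperone lists had 1 gene each with a member, Eif4a2, Sat1 and Dnajc5. Among genes with at least 20 annotated reads this was 1 of 43 (2.33%), 1 of 9 (11.1%) and 1 of 38 (2.63%), against 2.90% of all such genes. No member was found in 15 nonsense-mediated decay factor genes with reads, 26 stress response and amino acid transport genes, 46 lysosome and autophagy genes or 18 circadian clock genes. Over all genes with reads, 1.58% had one. Of the stress response, lysosome and clock genes with reads, 2, 9 and 3 are annotated with a transcript of the type. Of the decay factor genes, 6 had at least 20 annotated reads and 2 of the 15 with reads are annotated with such a transcript, so few could have shown one.

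Reads on models outside the annotation can hold the splice junctions of a member. Of the 223 members, 190 have a junction that no annotated protein-coding transcript holds. For 128 of these, unannotated models of the same gene also had reads over such a junction, in both libraries for 72. The 190 members held 577 and 1082 reads in replicates 1 and 2, against 298 and 545 reads over such junctions on the unannotated models. The latter were counted member by member, so reads over a junction that members of 1 gene share can count more than once. In 32 members the unannotated models had more reads than the member. Tmem234-212 had 12 and 10 reads of its own, against 10 and 17 on such models. Cyth2-203 had 27 and 59, against 3 and 6, and Mcrip2-206 had 5 and 15, against 4 and 23. Counts of the annotated transcript therefore leave out part of the reads with its junction.

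Between the libraries the members did not differ past the threshold. For shares of the gene's annotated reads, Fisher's exact test (two-sided) was run with Benjamini-Hochberg adjustment over all 5443 annotated transcripts tested, of which 6 were called (0.11%). Of 168 members tested 0 were called, and 6 (3.57%) had an unadjusted p under 0.05, against 189 (3.47%) of all transcripts tested. For levels relative to the annotated reads of each library, an exact binomial test (two-sided) with the same adjustment was run over 8223 transcripts with at least 10 reads, of which 154 were called (1.87%). Of 56 members tested 0 were called, and 6 (10.7%) had an unadjusted p under 0.05, against 955 (11.6%) of all. Each test compares 1 library with 1 other and covers counting error only. Over all members the median was 5 reads. Even 0 against 10 reads, for 2410004B18Rik-202, named for its values, gave Fisher's exact p = 0.0172 and exact binomial p = 0.0175. At such depths a member could hardly be called, so 0 calls do not show that the libraries were alike.

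The lowest p among members was that of Zfand5-204, named after its values were seen, with 8 reads in replicate 1 and 2 in replicate 2, Fisher's exact p = 0.00197 and adjusted p = 0.878. For Ddx5-208 the share was 7.93 percentage points higher in replicate 1, with Fisher's exact p = 0.0287 and adjusted p = 1. Its level had a log2 ratio of 0.13, replicate 1 over replicate 2, with 0.5 added to each count. Iscu-205 had the lowest level p of the 15 most read members, with a log2 ratio of -0.79, exact binomial p = 0.0249 and adjusted p = 0.321. Over the 115 members whose gene had at least 20 annotated reads in each library, the shares differed by a median of 2.36 percentage points, and at most by 18.9, for Tmem234-212 with 30% and 11.1%. Across these members Pearson's r was 0.842 and Spearman's rho 0.570, as a description, since the points share the same libraries.

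**Figure D5:**
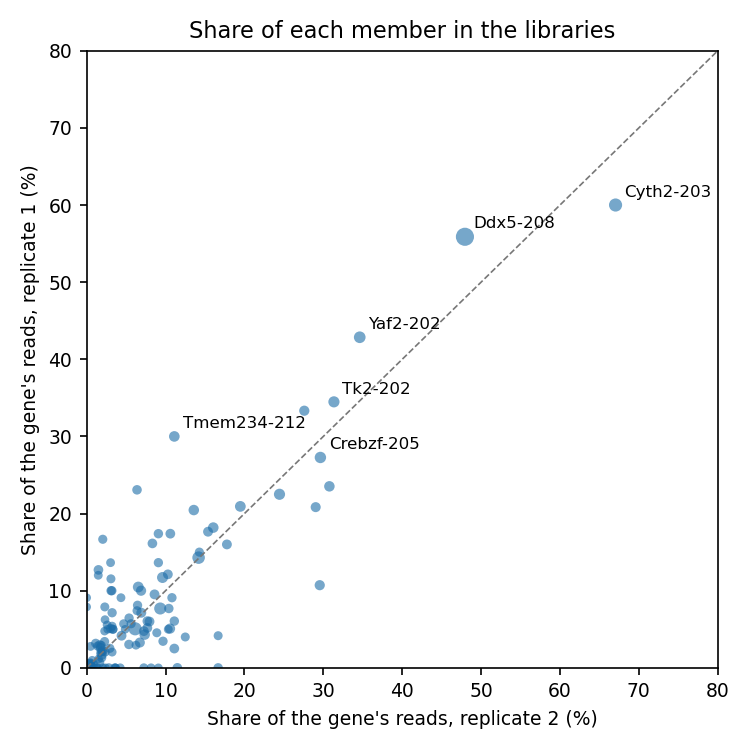
Share of the gene's annotated reads in replicate 1 (y axis, percent) against replicate 2 (x axis, percent) for the 115 members whose gene had at least 20 annotated reads in each library; point size grows with reads and the dashed line marks equal shares. Most members lie under 20% in both, Ddx5-208 and Cyth2-203 stand apart at the top, and Tmem234-212 lies farthest from the line.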

How the data were processed

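Each deposited table holds the authors' read counts, whole numbers per transcript model of 1 library, and lists models with at least 1 read, per the file headers. Reads were assigned by the authors to build mm10 and GENCODE M21 extended by TALON models, each library on its own, per the deposited files' headers; aligner and program versions are not given in the sources used here. Control RNAs were left out. Types and exons came from the deposited annotations; exons of all 223 members equalled the M21 reference, which gave reading frames and sequences. "Annotated reads" are those on models of class Known.

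Python 3.11.15 with pandas 2.3.3, numpy 2.4.6, SciPy 1.17.1, statsmodels 0.14.6 and matplotlib 3.10.9 were used, and edgeR 4.0.16 in R 4.3.3 for TMM factors as an alternative. Share tests needed 10 annotated reads of the gene in each library and 2 annotated transcripts with reads, and level tests 10 reads. The threshold was an adjusted p of 0.05, and the tests were tried on simulated data. The labels call the libraries biological replicates; p-values measure counting error between them.

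The text names the 15 most read members, the 15 with the highest share (at least 10 reads, gene with at least 20), list members with at least 10 reads and the 3 most read of each kind of change, 38 in all. The kind "extra intron within an exon" was added after the structures were seen. Members and lists were chosen with earlier results of these data known. Reads are not scaled to length.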

Additional observations from a re-analysis of the deposited data

How the results depend on the processing

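The number of members, 223, was 627 with a minimum of 1 read, 56 with 10 and 116 with at least 2 reads in each library. Their mean share of annotated reads, 0.277%, was 0.340% with all transcripts of the type, 0.213% over all reads of annotated genes and 0.224% without Ddx5-208, an alternative chosen after seeing the data; leaving out a replicate gave 0.269% to 0.285%. The median share of the gene's reads, 8.55%, was 5.66% in genes with at least 50 annotated reads, 11.1% with no minimum and 6.67% over all reads of the gene, and 7.69% to 8.60% with a replicate left out. The 5 members above 50% were 2 with at least 50 annotated reads and 1 over all reads of the gene, and 5 to 6 in single libraries. Calls of the share test over all transcripts, 6, were 12 over all reads of the gene, and 0 members were called under each of its 3 alternatives or with TMM scaling or no minimum of reads in the level test. Leaving out the 5 members that share an intron chain, also chosen after seeing the data, a longer coding transcript for comparison and a distance of 55 bases (216 of 223 members) kept each value within its spread or within 1.5 times. No paired analysis was possible because both libraries belong to 1 group. Depth limits the set: 26 members had no read in the shallower library.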
